A study of Mus musculus with 6 samples.

Results

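The regions described here are 1749 places where YAP was found in gastric tumors of mice, away from the ends of protein-coding genes. At these places the active-chromatin mark H3K27ac was found in normal stomach but not in the tumor. They were chosen in steps from lists of peak summits, the single bases at which enrichment was highest. A YAP site was a pair of mutually nearest summits of the 2 tumor YAP libraries, at most 200 bp apart and placed at their midpoint, on chromosomes 1 to 19 and X, and 29468 sites met this. Of these, 19279 lay over 1 kb from the start or end of any protein-coding gene and over 200 bp from any YAP summit of normal stomach, and they are called distal. The 1749 distal sites with a normal H3K27ac summit within 1 kb and no tumor H3K27ac summit within 1 kb are called normal-only sites, 9.07% of the distal sites (Wilson 95% interval 8.67 to 9.49). Another 2258 distal sites (11.7%) had H3K27ac in tumor only, 3725 (19.3%) in both tissues and 11547 (59.9%) in neither. Because the presence and absence of summits chose the sites, these shares are a description and carry no test.

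The series profiled gastric corpus epithelial cells, released with EDTA and not cultured, by chromatin immunoprecipitation sequencing. Tumor mice had the genotype CluCreERT2;R26rtTA;HA-Yap+, in which a tamoxifen-inducible Cre recombinase is expressed from Clu, a reverse tetracycline transactivator sits at Rosa26 and a tagged Yap is induced by doxycycline. Normal mice were WT, and the labels give all mice 2 mg tamoxifen on 5 days and doxycycline food over the final 14 days. YAP was profiled in 2 tumor and 2 normal libraries, and H3K27ac in 1 tumor and 1 normal library, so H3K27ac has no replicate. The labels give no ages and do not say whether 2 libraries of a group are from different mice.

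YAP is a transcriptional coactivator held in the cytoplasm by the kinases of the Hippo pathway. In the nucleus it has no DNA-binding domain of its own and is carried to DNA mainly by TEAD factors, often at enhancers that also hold AP-1 factors. H3K27ac, acetylation of lysine 27 of histone H3, is laid down mainly by p300 and CBP and marks active enhancers and promoters. In the gastric corpus, YAP activity is known from injury, metaplasia and tumor growth.

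The tumor lists held 66532 H3K27ac summits and 38227 and 53831 YAP summits, against 22386 H3K27ac summits and 1574 and 2121 YAP summits in the normal lists. Sequencing depth is unknown for every library, and it is one of the things that set how long such a list is. Words within the peak names go against the labels of 2 YAP lists: YAP tumor 1 carries the word found in the normal H3K27ac list, and YAP normal 2 carries the word found in the tumor H3K27ac list. Without tumor 1, 2849 of the 39952 distal summits of tumor 2 (7.13%) met the H3K27ac rule. Without tumor 2, 2225 of the 25817 distal summits of tumor 1 (8.62%) did, and without normal 2 the sites numbered 1766. Of 15 gastric epithelial markers, 11 had a tumor H3K27ac summit and 12 a normal one. Tff2 lacked one in both lists, Cblif, Gkn1 and Muc5ac lacked one in tumor, and Muc6 and Sox2 lacked one in normal. Of 8 markers of immune, stromal, endothelial and muscle cells, 4 had a summit in each tissue, 5 summits in all in tumor and 5 in normal. The 4 were not the same in the 2 tissues. Cd3e and Pecam1 lacked a summit in both lists, Acta2 and Ptprc lacked one in tumor, and Des and Kdr lacked one in normal.

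The sequence around most sites was not used here, because the reference at hand held windows around annotated starts of transcription and no genome. These RefSeq windows (build GRCm38.p6) reach from 250 bases before to 50 bases after a start, and 45 normal-only sites (2.57%) fell inside one. Of the 45 windows, 23 belonged to protein-coding genes whose outermost ends were over 1 kb away. Motifs were searched on both strands as GGAATG for TEAD (CATTCC on the other strand), TGANTCA for AP-1 and AGATAA for GATA factors (TTATCT on the other strand). The 5 windows below were picked after their values were seen, to show the best-ranked site and the motif combinations, and are written 5′ to 3′ on the strand of the gene with any TEAD or AP-1 motif in capitals. Smarcal1 encodes an annealing helicase of stalled replication forks, and its window, chr1:72583001-72583300 on the plus strand, held none of the 3 motifs. Cyp3a13 encodes a cytochrome P450, and its window, chr5:137921570-137921869 on the minus strand, held 2 AP-1 motifs. Myo1h encodes an unconventional myosin, and its window, chr5:114356565-114356864 on the plus strand, held 1 TEAD motif. Mgst2 encodes a microsomal glutathione S-transferase, and its window, chr3:51660929-51661228 on the plus strand, held 1 AP-1 motif. Sult1b1 encodes a sulfotransferase, and its window, chr5:87536173-87536472 on the minus strand, held 1 TEAD and 1 AP-1 motif.
Smarcal1: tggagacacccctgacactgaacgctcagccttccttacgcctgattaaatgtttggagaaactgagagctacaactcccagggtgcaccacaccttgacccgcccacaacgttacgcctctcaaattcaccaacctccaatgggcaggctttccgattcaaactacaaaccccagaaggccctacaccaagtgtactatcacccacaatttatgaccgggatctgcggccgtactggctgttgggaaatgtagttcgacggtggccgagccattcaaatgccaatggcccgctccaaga
Cyp3a13: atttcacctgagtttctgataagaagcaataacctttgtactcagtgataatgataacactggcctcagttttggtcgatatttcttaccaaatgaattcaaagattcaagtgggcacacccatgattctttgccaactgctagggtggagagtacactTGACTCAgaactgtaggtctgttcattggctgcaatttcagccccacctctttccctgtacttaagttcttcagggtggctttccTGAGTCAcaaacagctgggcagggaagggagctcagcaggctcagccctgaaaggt
Myo1h: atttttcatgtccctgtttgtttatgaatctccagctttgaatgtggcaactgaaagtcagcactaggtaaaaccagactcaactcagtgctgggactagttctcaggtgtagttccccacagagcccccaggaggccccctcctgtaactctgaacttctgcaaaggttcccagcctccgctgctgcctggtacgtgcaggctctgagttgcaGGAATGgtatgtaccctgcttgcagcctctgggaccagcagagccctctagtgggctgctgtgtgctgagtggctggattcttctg
Mgst2: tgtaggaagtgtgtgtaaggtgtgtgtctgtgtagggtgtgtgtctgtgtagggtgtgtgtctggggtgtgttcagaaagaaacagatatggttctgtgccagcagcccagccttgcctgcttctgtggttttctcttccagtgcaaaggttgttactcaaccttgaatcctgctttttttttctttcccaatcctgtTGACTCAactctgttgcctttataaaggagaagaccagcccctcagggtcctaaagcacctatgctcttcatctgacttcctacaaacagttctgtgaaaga
Sult1b1: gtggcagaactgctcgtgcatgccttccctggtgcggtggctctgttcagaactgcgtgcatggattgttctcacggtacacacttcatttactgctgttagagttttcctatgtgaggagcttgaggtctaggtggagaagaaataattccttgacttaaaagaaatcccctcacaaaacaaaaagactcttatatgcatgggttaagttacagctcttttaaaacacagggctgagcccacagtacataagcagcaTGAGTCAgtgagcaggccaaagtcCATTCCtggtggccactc

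An AP-1 motif was present in 11 of the 45 windows with a normal-only site (24.4%, 14.2 to 38.7). The share was 11.9% of the 118 windows with a tumor-only site, 5.09% of the 570 with a site acetylated in both tissues, 14.0% of the 129 with neither and 7.85% of all 32619 windows. The interval of the normal-only windows overlapped those of the tumor-only and neither windows. Base composition differed between the sets, with a median GC content of 50.7% in the normal-only windows against 59.0, 64.0 and 51.0% in the other three and 53.0% in all windows. Among windows of 40 to 60% GC the AP-1 shares were 26.2% in 42 normal-only windows, 16.4% in 67 tumor-only windows, 9.18% in 196 windows of both tissues, 14.8% in 122 windows of neither and 9.01% in all. TEAD motifs stood in 7 normal-only windows (15.6%), against 14.6% of all windows, and GATA motifs in 6 (13.3%), against 11.2%. These 45 sites are a small and unrepresentative part of the 1749, since they lie at annotated starts.

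The normal-only sites were bound by YAP at middling strength. Their median deposited score, which is the authors' own −log10 p-value or q-value, was 7.36 in tumor 1 and 12.0 in tumor 2. As scores cannot be set against each other between lists, each was turned into a rank percentile of its own list, with 0 the highest score. The median normal-only site stood at percentile 48.2 of tumor 1 (quartiles 31.5 and 68.0) and 35.9 of tumor 2 (22.4 and 53.6), a mean of 42.0 ± 8.70 (SD, n = 2 libraries). Ranked among the distal sites alone, the normal-only medians were 44.8 in tumor 1 and 45.9 in tumor 2. The whole lists differ in length, so that SD is not a measure of spread between libraries alone. In the whole lists, the medians in tumor 1 and tumor 2 were 55.7 and 41.8 at tumor-only sites, 34.0 and 24.4 at sites acetylated in both tissues, and 57.0 and 42.8 at sites with neither. In both libraries the median of the normal-only sites therefore ranked below that of the sites of both tissues and above those of the other two classes, with quartile ranges that overlapped throughout. The scores of the tumor libraries correlated across normal-only sites with a Spearman rho of 0.602 (n = 1749), against 0.594 across tumor-only sites (n = 2258), 0.811 across sites of both tissues (n = 3725) and 0.536 across sites of neither (n = 11547). Sites share the same libraries and are not independent replicates.

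**Figure D1:**
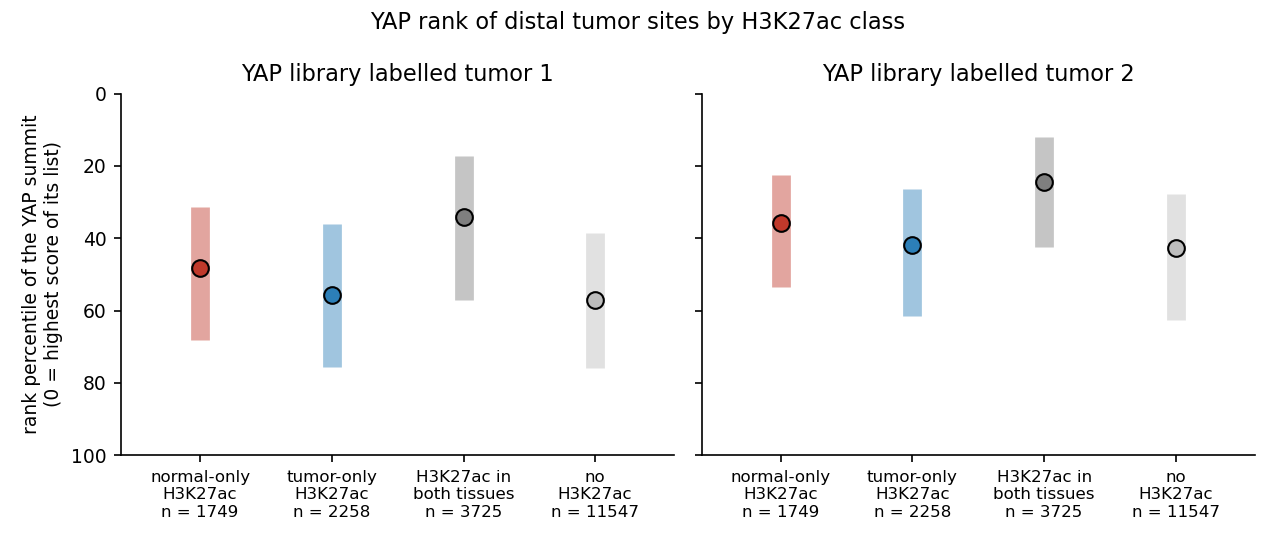
The plot of YAP rank by H3K27ac class gives, for each tumor YAP library, the rank percentile of distal sites in that library's list (vertical axis, 0 at the top for the highest score), with a point at the median and a bar from the lower to the upper quartile. The normal-only sites, at medians of 48.2 and 35.9, lie between the sites acetylated in both tissues and those acetylated in tumor only or in neither.

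The normal-only share was lowest among the sites of lowest YAP score in both tumor libraries. The 19279 distal sites were divided into 5 equal groups by score. From the highest to the lowest group, the normal-only share was 9.70, 10.8, 8.95, 8.64 and 7.31% by tumor 1. By tumor 2 it was 387 of 3856 in the highest group and then 9.15, 10.5, 8.38 and 7.31%. In the lowest group the interval was 6.53 to 8.18% by either library, below those of the highest group, which were 8.80 to 10.7% by tumor 1 and 9.13 to 11.0% by tumor 2. The share acetylated in both tissues spanned a wider range, being 41.1% in the highest and 9.54% in the lowest group of tumor 1. Among summits without a partner in the other tumor library, the normal-only share was below the 9.07% of matched sites. It was 473 of 6518 unmatched summits of tumor 1 (7.26%, 6.65 to 7.91) and 1100 of 20663 unmatched summits of tumor 2 (5.32%, 5.03 to 5.64). In the libraries labelled normal 1 and normal 2, 50 of 1557 YAP summits over 1 kb from a gene end (3.21%) and 90 of 1431 (6.29%) lay at normal-only H3K27ac. These summits were not matched between libraries, and 38.2% of those in normal 1 and 45.6% in normal 2 lay at tumor-only H3K27ac.

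The H3K27ac that marked these sites in normal stomach was mostly weak. The nearest normal summit had a median score of 6.52 at normal-only sites, against 14.8 at sites acetylated in both tissues, and a median rank percentile of 74.9 (quartiles 60.9 and 87.1) against 47.0 (26.7 and 67.6). At 1559 of the 1749 normal-only sites it scored lower than the median of the normal list (a percentile above 50), and at 1 site it stood in the best 10%. Among all 5474 distal sites with a normal H3K27ac summit, 32.0% (30.7 to 33.2) had no tumor summit within 1 kb. That share was 53.5% with H3K27ac lists of equal length, 14.2% with a normal H3K27ac score of at least 10 and 20.1% with YAP scores of at least 10. In 4 equal groups by the score of that summit, the share was 30 of 1369 (2.19%) at scores of 21.8 to 301, 342 of 1368 (22.8 to 27.4%) at 10.2 to 21.8, 614 of 1368 (44.9%) at 6.12 to 10.2, and 763 of 1369 (55.7%) at 2.11 to 6.12. The absence of tumor H3K27ac was thus concentrated at places where the normal mark itself ranked low. How much of it reflects summits close to the caller's threshold was not tested. The sources used here do not give that threshold.

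**Figure D2:**
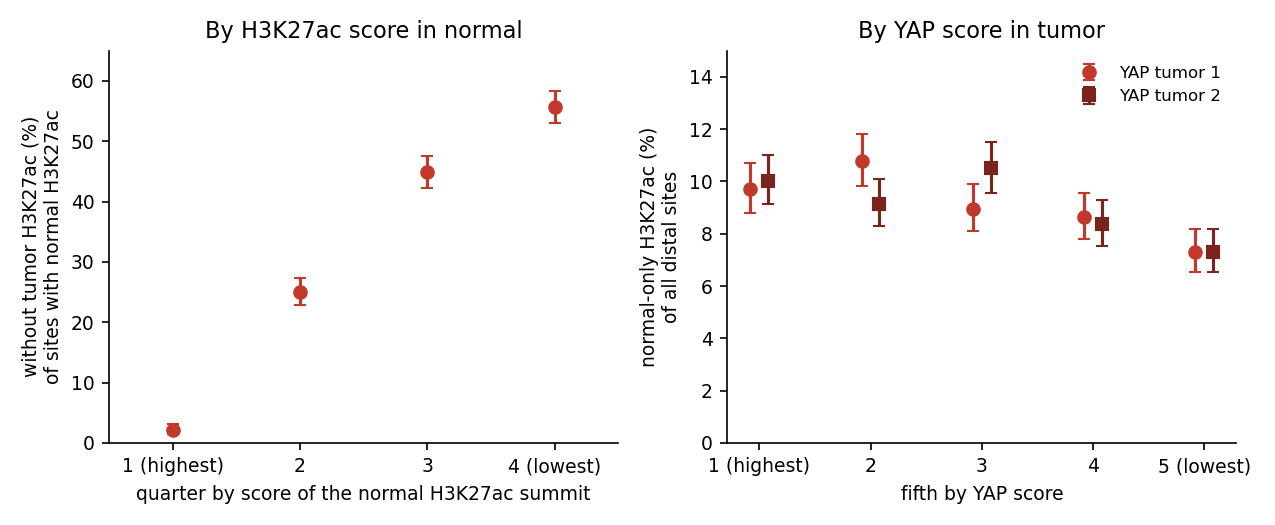
The left panel gives the share of distal YAP sites with normal H3K27ac that lack tumor H3K27ac (%, vertical axis) in 4 groups by the score of the normal H3K27ac summit, from 2.19% in the highest to 55.7% in the lowest group. The right panel gives the normal-only share of all distal sites (%) in 5 groups by YAP score of tumor 1 (circles) and tumor 2 (squares), all between 7.31 and 10.8%, and error bars are Wilson 95% intervals.

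The gap in YAP rank between the classes followed the strength of the normal mark. In the highest of the 4 groups by normal H3K27ac score, the 30 normal-only sites had median YAP percentiles of 43.0 and 38.6 in tumor 1 and tumor 2, against 21.3 and 14.3 at the 1339 sites of both tissues. In the lowest group, the 763 normal-only sites had medians of 50.6 and 38.0, against 49.6 and 35.4 at the 606 sites of both tissues. At equally weak normal H3K27ac the classes were therefore nearly level in YAP rank. Seen from the mark, 1965 of 6632 distal normal H3K27ac summits with a YAP site of both tumor libraries within 1 kb (29.6%, 28.5 to 30.7) had no tumor summit near. Of the 1641 with no YAP summit of either tumor library, 942 (57.4%) had none. These groups were not matched on the score of the normal summit.

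By the median, normal H3K27ac summits lay slightly farther from normal-only sites than from sites of both tissues, with quartile ranges that overlapped. The distance had a median of 274 bp (quartiles 154 and 404) at normal-only sites, against 232 bp (112 and 368) at sites of both tissues. It was at most 100 bp at 267 normal-only sites (15.3%), above 100 and up to 200 bp at 323 (18.5%), above 200 and up to 500 bp at 898 (51.3%) and above 500 bp at 261 (14.9%). For sites of both tissues these shares were 22.5, 21.2, 44.2 and 12.1%. The bands differ in width, so a larger share need not mean that summits were denser there. A histone mark commonly peaks on nucleosomes beside a bound factor, and whether it did so here was not tested. Of the normal-only sites, 1530 had a single normal summit within 1 kb, 211 had 2 and 8 had 3, and the nearest summits made up 1714 different ones, so a few neighbouring sites shared a summit.

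The nearest tumor summit lay at a median of 9403 bp from a normal-only site (quartiles 4018 and 20552), and up to 307671 bp. It lay between 1 and 2 kb away at 220 sites (12.6%) and over 10 kb away at 846 (48.4%). For sites with H3K27ac in neither tissue the median was 10223 bp, with 50.8% over 10 kb. The sites just inside the limit were at Gstt3, 1004 bp from a tumor summit, and at Tle6, at 1007 bp, as was a site on chromosome 12, and those just outside were at Fblim1 and Cog2, both at 1000 bp, and Myh14, at 999 bp. For the normal H3K27ac limit the sites at Snap25 (993 bp), Ndst1 (990 bp) and Plcd3 (979 bp) were just inside and those at Gm38664 (1002 bp), Ccdc171 (1008 bp) and Tmem220 (1009 bp) just outside. For the gene-end limit the sites at Irf2bp1 (1001 bp), Tmem210 (1008 bp) and Akr1b3 (1012 bp) were kept and those at Chrnb1 (997 bp) and Asxl1 (955 bp) were not. For normal YAP the closest sites kept were at Gm51877 (214 bp), Smgc (233 bp) and Shf (508 bp), and the closest left out lay at 121 and 113 bp and, near 9530057J20Rik, at 102 bp. The widest gap between the 2 tumor summits of a site was 200 bp, at Fbn2, Gm5148 and Znhit6. The limits on gene ends and on normal YAP left out 201 and 43 sites that otherwise had normal-only H3K27ac.

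Normal-only sites lay farther from the ends of coding genes than the other acetylated sites. Their distance to the nearest coding-gene end had a median of 21392 bp (quartiles 9144 and 53011), against 11791 bp at tumor-only sites, 11066 bp at sites of both tissues and 18539 bp at sites of neither. Only 474 (27.1%, 25.1 to 29.2) lay 1 to 10 kb from a gene end, against 45.7% of tumor-only sites and 47.6% of sites of both tissues, while 814 (46.5%) lay 10 to 50 kb away and 461 (26.4%) farther. The difference stood in 3 of the 4 groups by score of the normal mark. In the 3 lower groups by normal H3K27ac score the medians at normal-only sites were 23068, 21708 and 21329 bp, against 11818, 14681 and 13980 bp at sites of both tissues, whereas in the highest group they were 7894 and 7765 bp. Of the normal-only sites, 860 (49.2%, 46.8 to 51.5) lay inside a protein-coding gene, against 58.9% of tumor-only sites, 61.7% of sites of both tissues and 48.1% of sites of neither. A further 211 (12.1%) lay inside a noncoding gene only, and 678 (38.8%) inside no gene. Exons and introns were not told apart here.

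**Figure D3:**
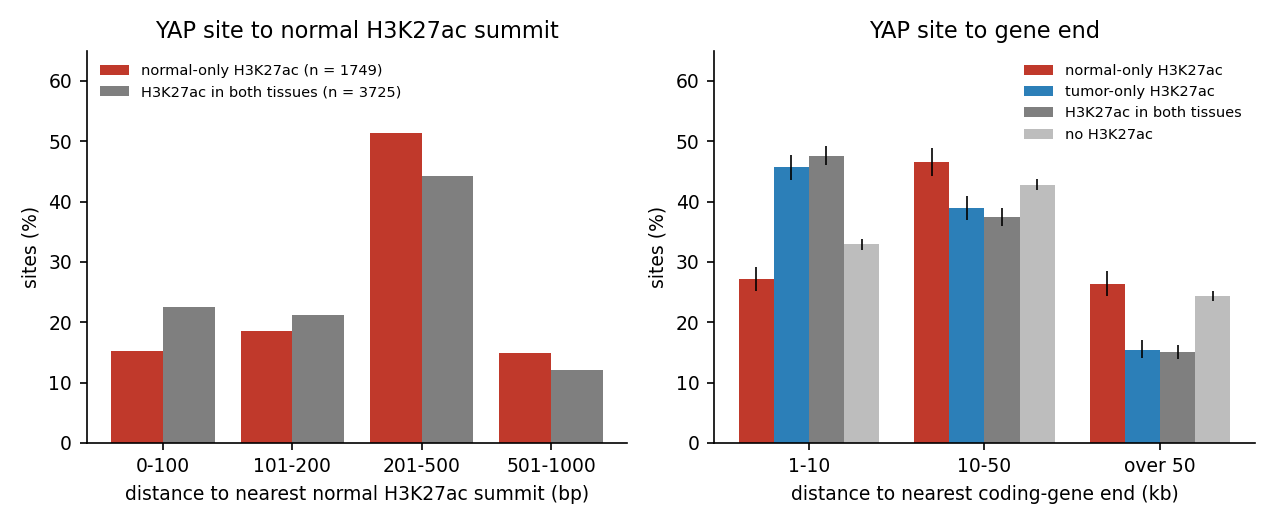
The left panel gives the percentage of normal-only sites (n = 1749) and of sites acetylated in both tissues (n = 3725) by distance to the nearest normal H3K27ac summit (bp), with 51.3% of normal-only sites above 200 and up to 500 bp. The distance bands of this panel differ in width. The right panel gives the percentage of sites of all 4 classes by distance to the nearest coding-gene end (kb) with Wilson 95% intervals, where 27.1% of normal-only sites lie at 1 to 10 kb, below the other 3 classes.

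The normal-only site with the best summed rank in the tumor YAP libraries lay inside Acbd4, an acyl-CoA-binding protein gene, and 1126 bp from an end of Plcd3, a phospholipase C gene (chromosome 11, 103102836). It ranked 307 in tumor 1 and 215 in tumor 2. This site sat near both H3K27ac limits, 979 bp from the normal summit and 1203 bp from a tumor one. The second, on chromosome 7 at 58399303, ranked 243 and 296 and lay 256839 bp from the nearest gene end, with normal H3K27ac 204 bp away and tumor H3K27ac 22690 bp away. The third lay 49523 bp from Cdkn2b, which encodes the cyclin-dependent kinase inhibitor p15 (chromosome 4, 89360555), and ranked 485 and 152, with the nearest tumor H3K27ac summit 48975 bp away.

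The other 12 of the 15 best-ranked sites lay at genes of varied function. A site 8291 bp from Shf, an SH2-domain adaptor gene, ranked 332 and 726, with a normal YAP summit 508 bp away, the only one of the 15 with normal YAP within 1 kb. Sites inside Apex2, an AP endonuclease gene, and beside Trappc9, a gene of a vesicle-tethering complex, ranked 276 and 922 and 512 and 867. Lbh, a transcriptional cofactor gene, had a site at ranks 1275 and 727, Nfib, a nuclear factor I gene, contained one at 1038 and 1570, and Cebpe, a C/EBP factor gene, had one 2154 bp away at 1691 and 1181. Bfsp1, known for a lens filament protein, held one at 2146 and 835, Pdlim5, a PDZ-LIM protein gene, one at 1318 and 1937, and Bcas1 had one at 2532 and 982. The remaining sites were inside Smarcal1 (986 and 2737, nearest gene end that of Marchf4, a ubiquitin ligase gene), inside Myo10, a filopodial myosin gene (1218 and 2711), and inside Ank3, the ankyrin-G gene (386 and 3686). Of the 15, 8 lay inside a coding gene, 4 had no gene end within 50 kb, and 13 had a normal H3K27ac summit that scored below the median of its list. In all, 37 normal-only sites stood in the best 10% of both tumor YAP lists and 804 in the best 50% of both.

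The 10 sites with the strongest normal H3K27ac were of a different kind, and 7 of them lay within 3 kb of a gene end. The first, inside H2-DMa, a gene for loading peptides onto MHC class II, had the normal summit of rank 1550 at 305 bp and a tumor summit 1376 bp away. The second, 2189 bp from Igsf8, an immunoglobulin superfamily gene, had the normal summit of rank 2491 at 87 bp and a tumor summit at 1718 bp. The third, inside the phosphatase gene Ptpn12, had the normal summit of rank 3266 at 859 bp and a tumor summit at 1067 bp. Sites at Tent5a, Kcmf1, Adnp and Chd1 and one on chromosome 10 at 117455816 also had a tumor summit between 1 and 2 kb away, which makes 8 of the 10. The sites at Mrps27, a mitochondrial ribosome gene, and Ptpdc1 had theirs 2299 and 13963 bp away. At Tent5a, Kcmf1, Adnp, Chd1 and the chromosome 10 site the normal summit lay 881, 605, 969, 402 and 543 bp away. At most of these 10 sites, then, tumor H3K27ac was missing within 1 kb but present within 2 kb. At several of them the normal summit itself lay near the 1 kb limit. How far that limit set these calls was not tested.

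Assigned to the nearest gene end within 50 kb, 1288 of the normal-only sites belonged to 1128 protein-coding genes, 5.21% of the 21631 on these chromosomes. A single site was assigned to 993 genes, 2 sites to 114, 3 to 17 and 4 to 4. Those with 4 included Irf2, an interferon regulatory factor gene, Slc35f5, a solute carrier gene, and Gm21119. At Irf2 the sites lay 22186 to 41314 bp from the gene, all outside it, with ranks of 9745, 16302, 12089 and 18649 in tumor 1 and 17645, 6849, 14104 and 31867 in tumor 2. Within 50 kb of Irf2 the tumor and normal H3K27ac lists had 8 and 9 summits, so tumor H3K27ac was missing at the sites but not from the locus. At Slc35f5 the 4 sites lay 8653 to 18066 bp from the gene, and 3 of them fell between 125549965 and 125551875 on chromosome 1, where the nearest tumor summit was 9367 bp away or farther. The 4 sites of Gm21119 had normal H3K27ac of scores 3.20 to 4.78, among the weakest of the normal list. Distal sites of other classes were assigned to these genes as well. Irf2 had 2 of both tissues and 6 of neither, and Slc35f5 had 3 of neither. Gm21119 had 2 tumor-only sites, 1 of both tissues and 2 of neither.

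Genes with 3 sites included Bcas1, Rreb1, a zinc finger factor gene of the Ras pathway, Diaph1, an actin-nucleating formin gene, Maml2, a Notch coactivator gene, Shh, the Sonic hedgehog ligand gene, and Irf2bp2, a gene for a partner of IRF2. All 3 sites of Diaph1 and of Maml2 were inside the gene. All 3 of Shh lay 10868 to 34133 bp outside it, within the noncoding gene 9530036O11Rik, at ranks of 3522, 24720 and 14121 in tumor 1 and 8740, 21227 and 18499 in tumor 2. Tumor H3K27ac was 7345, 10992 and 12211 bp away from these sites. Among distal sites of other classes, Rreb1 had 3 tumor-only sites, 2 of both tissues and 1 of neither. Irf2bp2 had 3 of both tissues and 2 of neither, and Bcas1 had 1 of both tissues and 4 of neither. Diaph1, Maml2 and Shh had 1, 1 and 2 of neither and none with tumor H3K27ac.

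The longest run of normal-only sites, counted with gaps under 20 kb, was in Firre, a long noncoding RNA gene of the X chromosome that is known to act in nuclear organisation. It held 7 sites over 36773 bp (X, 50580361 to 50617134), and no distal site with tumor H3K27ac. Inside Firre the tumor H3K27ac list had 1 summit and the normal list 10, while the tumor YAP lists had 19 and 15 and the normal YAP lists 0 and 0. Its 7 normal-only sites ranked between 14595 and 28739 in tumor 1 and between 19827 and 45071 in tumor 2. The nearest tumor H3K27ac summit was at least 18186 bp from each of them. Firre also held 6 distal sites with H3K27ac in neither tissue. Elsewhere, Gm12610, a noncoding gene whose span includes Cdkn2b and the third-ranked site, held 4 normal-only sites, with 5 tumor and 8 normal H3K27ac summits inside it. The X chromosome had the highest normal-only share of distal sites, 32 of 246 (13.0%, 9.37 to 17.8), and chromosome 11 the lowest, 102 of 1394 (7.32%, 6.06 to 8.80). Of the 32 on X, 7 were those of Firre.

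**Figure D4:**
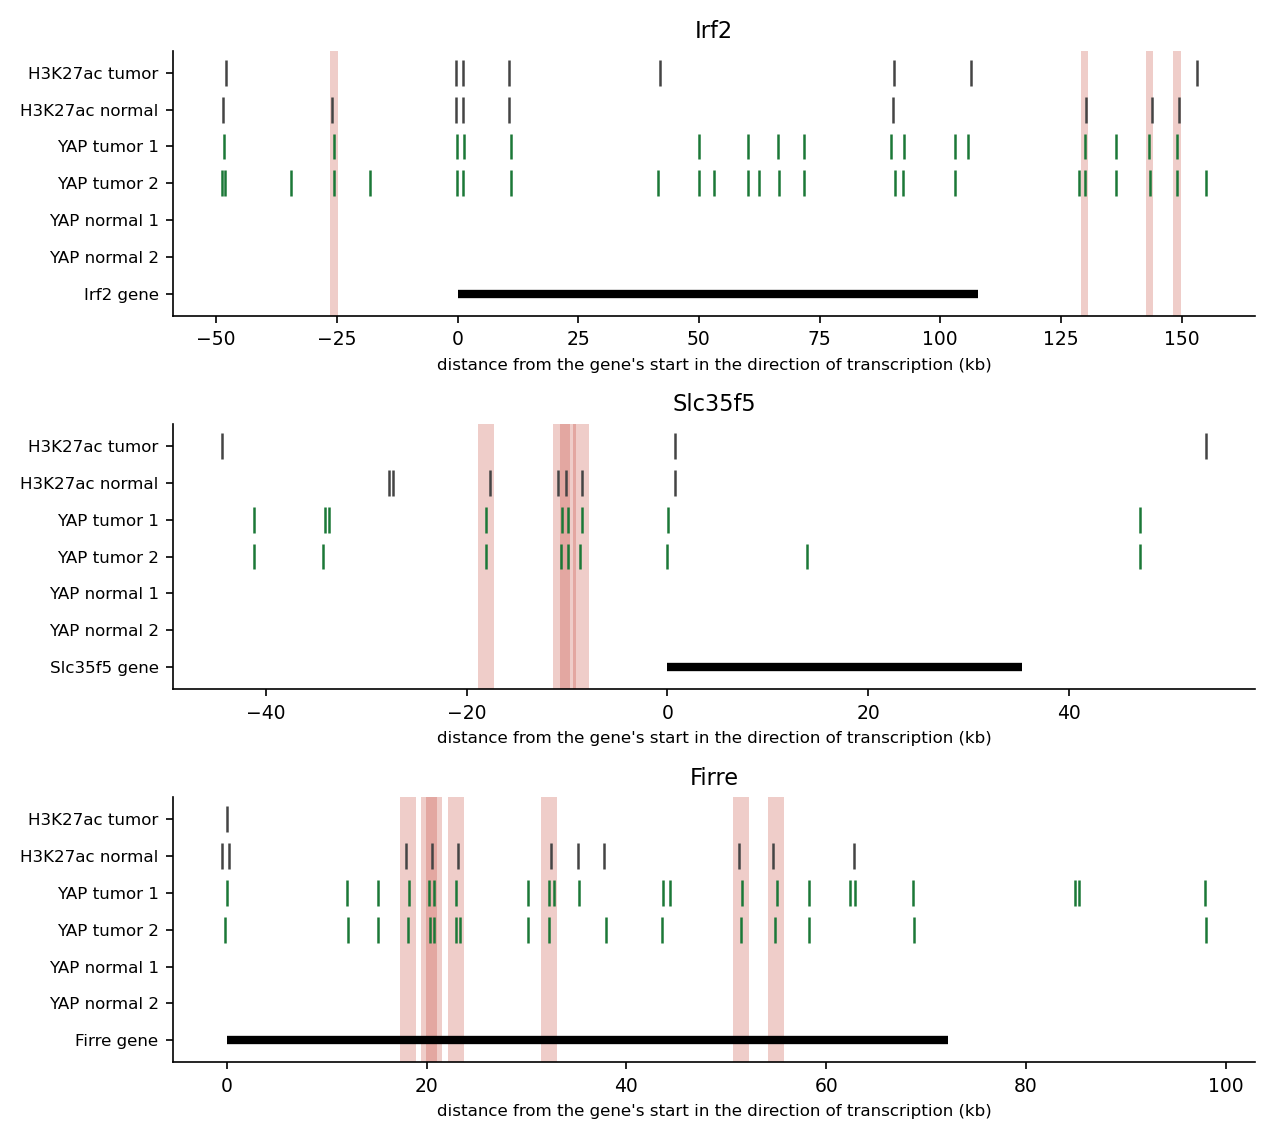
The map of 3 loci marks every summit of the 6 lists as a tick at Irf2, Slc35f5 and Firre against distance from the gene's start in the direction of transcription (kb), with the gene as a black bar and normal-only sites shaded. Within the shading, YAP tumor 1, YAP tumor 2 and H3K27ac normal have ticks and H3K27ac tumor has none, and inside Firre the tumor and normal H3K27ac lists have 1 and 10 ticks.

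Another normal-only site lay within 10 kb of 179 of the 1749 (10.2%, 8.90 to 11.7). A normal-only site lay that near to 3.37% of tumor-only sites (2.70 to 4.19), 5.26% of sites of both tissues (4.59 to 6.03) and 3.24% of sites of neither (2.93 to 3.58). Sites that share a normal H3K27ac summit count among these neighbours. Most were nevertheless single, with 1463 alone in their run, 111 runs of 2, 15 of 3, 3 of 4 and the run of 7 in Firre. Within 10 kb, 187 normal-only sites (10.7%) also had a site of both tissues, 358 (20.5%) a site of neither and 75 (4.29%) a tumor-only site. The classes differ in size, and neighbours of the same class were not counted for the other classes. Whether grouping is particular to normal-only sites is therefore not shown.

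The genes assigned a normal-only site were mostly not devoid of tumor H3K27ac. Of the 1128, 743 (65.9%, 63.1 to 68.6) had an H3K27ac summit within 1 kb of a gene end in both tissues, 124 (11.0%) in tumor only, 35 (3.10%, 2.24 to 4.28) in normal only and 226 (17.8 to 22.5%) in neither. For all 21631 genes these shares were 46.9, 18.3, 1.62 and 33.1%. Gene ends with a summit in normal only were about as common among genes with a site of both tissues (3.04%, 2.43 to 3.79). They made up 1.09% among genes with a tumor-only site and 1.87% among those with a site of neither. Many of the 1128 genes also had distal sites of another class. A tumor-only site was assigned to 194 of them (17.2%, or 11.8% of the 1646 genes with a tumor-only site), and 7.61% of all genes had one. A site of both tissues was assigned to 346 (30.7%, or 13.8% of the 2501 genes with such a site), and 11.6% of all genes had one. A site of neither tissue was assigned to 668 (59.2%, or 11.3% of the 5928 genes with such a site), and 27.4% of all genes had one. No distal site with tumor H3K27ac was assigned to 671 (59.5%, 56.6 to 62.3), against 70.6% of the genes with a site of neither and 82.8% of all genes. No distal site of another class was assigned to 302 (26.8%, 24.3 to 29.4), against 39.1% of the genes with a tumor-only site, 41.8% of those with a site of both tissues and 64.4% of those with a site of neither.

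Next, 14 gene lists of gastric cell types, pathways and other cell kinds were set beside these sites, each list's normal-only share of its own distal sites against the 9.07% of all. By gene, the count with a site is read against the 5.21% of all genes. For the differentiated cells of the corpus the site shares were close to 9.07%. The pit cell list had normal-only sites at 1 of 13 genes and at 2 of its 20 distal sites (interval 2.79 to 30.1%), both at Foxq1, a forkhead factor gene known for Muc5ac expression in mouse pit cells. The better of them ranked 3874 in tumor 1 and 1347 in tumor 2, 10365 bp from the gene (chromosome 13, 31547805), and the other ranked 18873 and 11668. The parietal cell list had 5 of 53 (9.43%, 4.10 to 20.3), at 4 of 24 genes (16.7%, 6.68 to 35.9), a gene share above the 5.21% of all genes. Sites of neither tissue were likewise at 58.3% of these genes, against 27.4% of all. The genes with normal-only sites were Kcnj15, a potassium channel gene with 2 sites, Clic6, a chloride channel family gene, Ezr, the gene of ezrin in the apical canaliculi, and Ppargc1a, a coactivator gene of mitochondrial biogenesis. The nearest tumor H3K27ac summit lay 1039 bp from the Ezr site and 1223 and 13259 bp from the Kcnj15 sites. It lay 6353 bp from the Clic6 site and 30802 bp from the Ppargc1a site. Beyond the nearest-end rule, sites lay deep inside Kcnq1, whose potassium channel serves acid secretion, 112999 bp from its end, and at a pair of positions inside Ppargc1a. The chief and neck cell list had 2 of 25, at Pgc, the pepsinogen C gene, and Agr2, a secretory-cell disulfide isomerase gene, with another pair of sites inside Runx1. Normal H3K27ac at the Pgc site ranked 21723 of 22386, near the end of the list. Tumor H3K27ac was 1108 bp from the Pgc site and 3052 bp from the Agr2 site.

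Transcription factors of the stomach and endoderm had a normal-only site at 7 of 24 genes and at 7 of 63 distal sites (11.1%, 5.49 to 21.2). They included Grhl2, Nr2f2, Foxa2, Ehf, Gata6 and Klf5, with 1 site each. Tumor H3K27ac lay 1301 bp from the Gata6 site and 8319 to 43647 bp from the sites of the other genes named. The Foxa2 site, 29260 bp from the gene of this forkhead factor of endoderm, ranked 9342 in tumor 1 and 14302 in tumor 2. The Klf5 site was weaker, at 22474 and 46999. The gene share was 29.2% (14.9 to 49.2), above the 5.21% of all genes, while the 9.07% of all distal sites lay inside the interval of the site share. Distal sites of the other classes were also at more of these genes than of all genes, with sites of both tissues at 33.3% against 11.6% and sites of neither at 66.7% against 27.4%. In the 12 lists other than this one and the parietal list, the interval of the gene share included 5.21%.

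YAP/TAZ target genes had normal-only sites at 3 of 30 genes and at 4 of 43 distal sites (9.30%, 3.68 to 21.6), and Hippo pathway genes at 3 of 31 and at 5 of 55 (9.09%, 3.95 to 19.6). The Hippo genes were Wwc1 and Wwc2, which encode the KIBRA scaffold family, and Amotl2, an angiomotin-family gene that is in both lists, as is Wwc1. The best of these sites, 26123 bp from Wwc2, ranked 5446 and 4147. F3, the tissue factor gene, had a site 1260 bp away at ranks 12504 and 12723. Both lists thus had the share of all distal sites to within 1 percentage point. The metaplasia list had 2 of 20, at Mal2, a gene of apical membrane transport, and Olfm4, a gene for a secreted glycoprotein of gut epithelium. The endocrine and tuft cell list had 1 of 8 (12.5%), at Gfi1b, a tuft cell factor gene. The mitochondria and energy list had 2 of 28 (7.14%), at Ppargc1a and Ppargc1b, with tumor H3K27ac 30802 and 1038 bp away.

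The AP-1 genes themselves had 1 of 28 (3.57%, 0.633 to 17.7), at Fosb, while 18 of their distal sites were acetylated in both tissues. Nuclear receptors had 3 of 63 (4.76%, 1.63 to 13.1), at Nr2f2, Nr1h4, the bile acid receptor gene, and Rara, a retinoic acid receptor gene. Tumor H3K27ac lay 1204 bp from the Rara site, 43647 bp from the Nr2f2 site and 61502 bp from the Nr1h4 site. Genes of the secretory pathway had 0 of 29 and genes of proliferation 0 of 27, counts that allow shares of up to 10.3 and 11.1% (3 counts of the total; the upper Wilson limits are 11.7 and 12.5%), so no difference from 9.07% was detectable at these numbers. The highest share was in the list of immune, stromal, endothelial and muscle genes, 5 of 20 (interval 11.2 to 46.9%). By gene it was 3 of 22 (13.6%, 4.75 to 33.3), and that interval included the 5.21% of all genes. The sites were a pair at Acta2, the smooth muscle actin gene, a pair at Pecam1, an endothelial adhesion gene, and 1 at Itgam, a myeloid integrin gene. The pair at Acta2 shared 1 normal H3K27ac summit, of rank 16054, so the 5 sites are not 5 separate marks. Tumor H3K27ac lay 1467 and 1530 bp from the Pecam1 sites and 1684 bp from the Itgam site, not far past the 1 kb limit. It lay 19971 and 19196 bp from the Acta2 sites. Acta2 and Pecam1 had no tumor H3K27ac summit at the gene ends themselves, and Pecam1 no normal one. Fewer cells of a type and less of the mark per cell cannot be told apart in bulk tissue, and the part of other cell kinds in the normal-only sites was not tested.

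**Figure D5:**
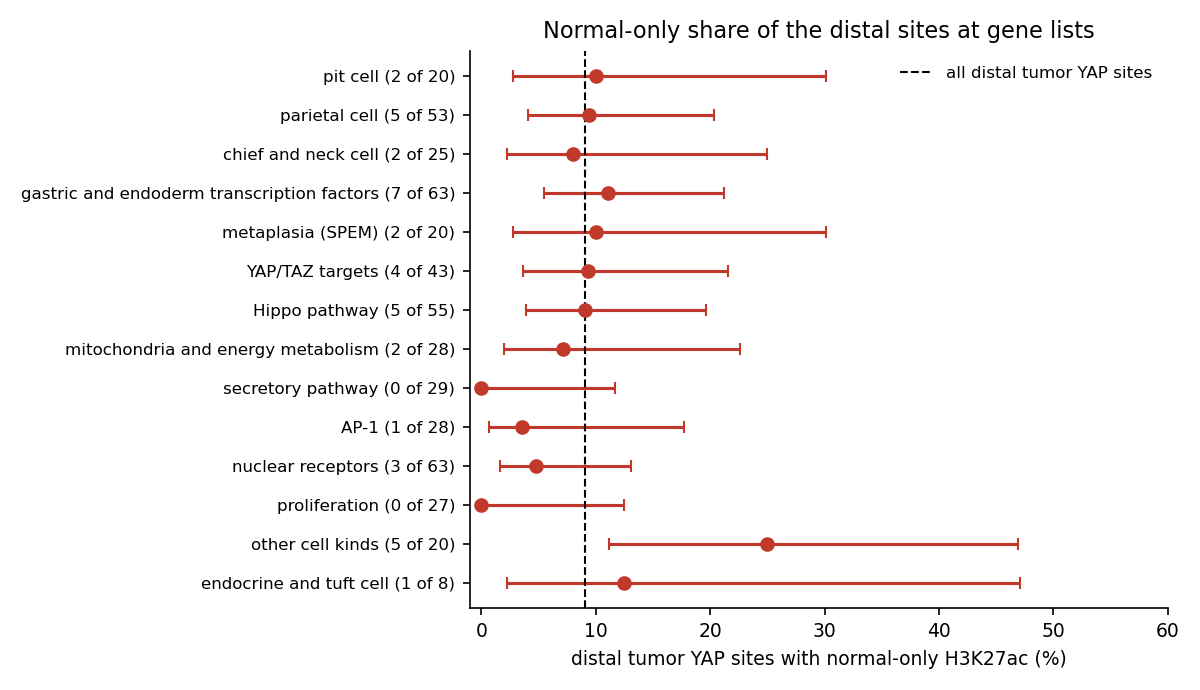
The plot of gene lists gives the percentage of each list's distal tumor YAP sites that are normal-only (points, with Wilson 95% intervals) for 14 lists, with counts beside the names and a dashed line at the 9.07% of all distal sites. The line falls inside the interval of every list but that of other cell kinds, with 5 of 20.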

How the data were processed

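YAP and H3K27ac were measured by chromatin immunoprecipitation sequencing in 6 libraries, read as pairs of 50 bp per the labels' protocols. Bowtie2 and MACS2, with the build GRCm38 (mm10), are named in the submitters' processing notes. The sources used here do not give versions, the peak threshold or any control library. The authors deposited 1 list of summits per library, each summit 1 bp wide with a −log10 p-value or q-value as its score (not stated which). Scores served to rank or filter summits inside 1 list, and Wilson 95% intervals cover counting error only. Groups came from the labels.

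Distances were computed in Python 3.11.15 (pandas 2.3.3, numpy 2.4.6, scipy 1.17.1) by code tested on simulated data, and plotted with matplotlib 3.10.9. Coding genes came from a RefSeq table of GRCm38.p6. With 1 H3K27ac library per tissue and sites chosen by their values, no test was made. Sites and the 14 lists were chosen with earlier results of these data known. Named were the 15 sites of best summed YAP rank, the 10 of strongest normal H3K27ac, the 10 genes with most sites, list genes with a site (at most 6 a list outside pit, parietal and chief cells) and 3 sites on each side of a limit. A few genes that this rule names are not reported here. Firre, the other noncoding genes, the miRNAs and the printed windows were named after their values were seen. Alternatives changed the distances, score minimums, list lengths, gene assignment and libraries. Planned motif shares over all sites were not run, as no genome was used, and were replaced by RefSeq windows.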

Additional observations from a re-analysis of the deposited data

How the results depend on the processing

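The number of normal-only sites followed list length and score minimums most. With the tumor H3K27ac list cut to the length of the normal one, there were 2930 sites (15.2% of distal sites) at 1776 genes, 11 of them of the pit, parietal and chief cell lists, against 1749 (9.07%), 1128 and 7. With a normal H3K27ac score of at least 10 there were 417 (2.16%) at 291 genes, 0 of those lists, and 46.3% lay inside a gene, against 49.2%. With YAP scores of at least 10 there were 458 (9.78%) at 319 genes, 2 of those lists, at a median percentile of 19.9, against 42.0. The share was 9.90% with YAP scores of at least 5, 8.55% with libraries matched within 100 bp, 9.85% with sites over 5 kb from gene ends and 8.60% with an H3K27ac window of 2 kb. A window of 500 bp gave 11 genes of those lists, and assignment within 10 kb gave 459 genes in all and 2 of those lists. The genes named for having 3 or 4 sites depended on these settings too. With a normal H3K27ac score of at least 10, Irf2, Slc35f5, Gm21119, Maml2 and Irf2bp2 had 0 sites, while Diaph1 kept 3. With assignment within 10 kb, Irf2, Gm21119, Rreb1, Diaph1, Maml2, Shh and Irf2bp2 had 0. With libraries matched within 100 bp, Irf2 had 2 sites and Gm21119 had 1.

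Leaving out each YAP library in turn gave 1752 to 2849 sites, 7.13 to 9.07% of distal sites and median percentiles of 42.1 to 54.2, the highest number without tumor 1. Of the 15 best-ranked sites, 6 remained with normal H3K27ac scores of at least 10. No paired analysis was possible because the results come from no test and the H3K27ac libraries are single. Depth is unknown, so the absence of a summit is not shown to be absence of the mark. Motif shares over all sites were not run, as no genome was used.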

Other observations

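Small RNA genes lay near a few of the normal-only sites. Within 5 kb, 12 annotated miRNA hairpins lay near 10 sites. No share of all distal sites near a hairpin is at hand, so this count cannot be read as particular to normal-only sites. One site inside Iars2 (chromosome 1, 185312144), at ranks 9348 in tumor 1 and 14586 in tumor 2, lay 1175 bp from Mir194-1 and 1437 bp from Mir215, hairpins of a cluster known in epithelium of the gut. A weaker site inside Agpat2, at ranks 36544 and 48183, lay 3870 bp from Mir126a, whose miRNA is known from endothelial cells. Whether these sites bear on the miRNAs was not tested.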
